A study of Drosophila melanogaster with 6 samples.

Results

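Complexes II to V of the respiratory chain were followed through their nuclear genes in ribosome-bound mRNA of adult fly heads. The genes were chosen by name: every gene of the count files whose FlyBase symbol starts with Sdh (complex II), UQCR (complex III), COX (complex IV) or ATPsyn (complex V), except the paralogs *COX4L*, *COX5BL*, *COX6AL2*, *ATPsynCF6L* and *SdhBL*. The choice was made with earlier results of these data known, so it was not blind to the measured values. Paralogs with symbols of the same form as those left out were kept, and the values of those left out are given below. The choice gave 43 of the 17489 genes counted, with 7 in complex II, 9 in complex III, 13 in complex IV and 14 in complex V. Of the 43, 29 are canonical subunits, 13 are paralogs whose symbol ends in L or L2 (called L paralogs from here on), and 1, *Sdhaf3*, is an assembly factor of complex II.

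Complex II oxidizes succinate and is also an enzyme of the citric acid cycle, complex III passes electrons to cytochrome c, complex IV passes them to oxygen, and complex V, the ATP synthase, uses the proton gradient to make ATP. Complex II is built from nuclear genes alone, whereas the other complexes also hold core subunits encoded by the mitochondrial genome. The adult head holds the brain, the eyes and muscle, tissues with a high demand for ATP. In *Drosophila*, many duplicated genes for mitochondrial proteins are known to be expressed mainly in testis.

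The flies were *Gr5a>UAS-Rpl3-3XFLAG* males, in which the *Gr5a* driver of sweet-taste neurons expresses a tagged ribosomal protein, so that an antibody to the tag recovers ribosomes with their mRNAs (TRAP). They ate a sugar diet with 30% sucrose (SD + OSMI) or a control diet with 5% sucrose (CD + OSMI) for 7 days, from day 5 to day 12. The food of both groups carried OSMI-1 at 10 µM, which inhibits the enzyme OGT, dissolved in 10% DMSO. Each diet had 3 replicates of 300 pooled heads, numbered 4 to 6 on SD + OSMI and 1 to 3 on CD + OSMI. The question for these genes is how high each one stands and whether its level differs between the diets while OGT is inhibited, and flies without the inhibitor were not analysed here.

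The total count per library was 13324513 to 16122009, and the 43 genes took 0.313 to 0.373% of it. Chi-square per degree of freedom between replicates of a diet was 10.0 to 31.0, where 1 is sampling noise alone. The markers of the labelled cell type were low: 5 receptor genes of sweet-taste neurons summed to between 3.09 and 5.19 CPM on SD + OSMI and to between 2.68 and 5.75 CPM on CD + OSMI. The same sums over 8 photoreceptor genes were 25206 to 30147 CPM and 27491 to 34859 CPM. The values below therefore describe the mRNA recovered from heads, and in such bulk samples fewer cells of a type and less RNA per cell cannot be told apart. The study reported sweet-taste receptor mRNAs, *Gr5a* among them, as enriched over the input, a comparison not made here. Replicate 6 on SD + OSMI stood apart in mitochondrial ribosomal RNA, which took 1.60% of its counts, against 0.266 to 0.351% in the other 5 libraries.

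Levels are given as TMM-normalized CPM (counts scaled to library size) within a gene and as CPM per kb of exon (RPKM) between genes. The canonical subunits were abundant. Their mean RPKM over the 6 libraries ranged from 5.99 to 375, with a median of 79.7, and their median rank was above 95.5% of the 11711 tested genes with an exon length. By complex, the median RPKM was 57.3 in complex II (4 genes), 51.8 in complex III (6 genes), 72.0 in complex IV (8 genes) and 88.9 in complex V (11 genes).

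The highest of them was *ATPsynC*, which encodes the c subunit of the rotor ring of the ATP synthase, present in several copies in each enzyme. It stood at 375 RPKM over the 6 libraries (range 340 to 439). *UQCR-C1*, a core protein of complex III, came next at 204 RPKM (range 196 to 219). *ATPsynbeta*, the catalytic subunit of complex V, followed at 164 RPKM, then *UQCR-C2*, the other core protein of complex III, at 153 RPKM. These top levels were separate where *ATPsynC* met *UQCR-C1* and where *UQCR-C1* met *ATPsynbeta*, since the ranges over the 6 libraries did not touch. Below that, the order was mostly loose: of the 28 pairs of neighbours in the order, 23 overlapped in range and 5 did not.

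The next group held *ATPsynF*, a subunit of the membrane part of complex V, at 151 RPKM, and *ATPsynB*, of the peripheral stalk, at 140 RPKM. *COX6B*, a small nuclear subunit of complex IV, stood at 133 RPKM, and *SdhA*, the flavoprotein of complex II that holds the succinate site, at 115 RPKM. *ATPsynD*, also of the peripheral stalk, at 110 RPKM, was the last of 9 canonical genes above 100 RPKM, and each of these neighbours overlapped the next in range. Within complex II the ratio of the highest to the lowest level was 4.58, between *SdhA* and the membrane anchor *SdhC* (25.2 RPKM), and within complex IV it was 3.41, between *COX6B* and *COX7C* (39.0 RPKM). Per kb of the shortest transcript the ratio of highest to lowest was 3.48 in complex II, between the same genes. In complex IV it was 3.73, between *COX6B* and *COX5B* (50.8 RPKM), which was lowest in place of *COX7C*. The order of the complexes by this ratio is therefore not settled.

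At the low end were *UQCR-11*, a small subunit of complex III, at 5.99 RPKM (range 5.03 to 8.01), and *ATPsyndelta*, a central stalk subunit of complex V, at 11.0 RPKM (range 9.87 to 12.9). Both levels depend on the length used, and so does the rank of *ATPsyndelta*. The merged exons of *ATPsyndelta* span 3817 bp and those of *UQCR-11* 1613 bp, and per kb of their shortest transcript they stood at 63.0 and 23.2 RPKM, ranks 22 and 29 of 29. With that length *ATPsynC* was at 970 RPKM and still highest, *ATPsynbeta* (232 RPKM) stood above *UQCR-C1* (213 RPKM), and *UQCR-Q* was at rank 9 in place of 19. Levels across the 6 libraries varied little, with coefficients of variation of 3.65% (*ATPsyngamma*, the central stalk shaft) to 17.2% (*UQCR-11*) and a median of 10.5%.

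Overlapping genes limit 3 of these levels, because whether the counting used strand is not given in the sources used here. All 523 bp of *UQCR-14* lie within exons of *CG32576* on the opposite strand, 40.5% of the exons of *UQCR-6.4* lie within *POSH*, and 35.6% of those of *ATPsyndelta* lie within *CG2962*. *CG32576* had 439 counts, *POSH* 2253 and *CG2962* 2 over the 6 libraries. *CG32576* and *POSH* were not called between the diets, and *CG2962* had too few counts to be tested.

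The diets were compared gene by gene with edgeR's quasi-likelihood test over the 11915 genes that reached 10 counts in 3 or more libraries. A gene was called where the p adjusted by Benjamini and Hochberg's method was under 0.1. Positive log2 fold changes mean a higher level on SD + OSMI. Of all genes tested, 6.91% were called higher and 2.18% lower on SD + OSMI, 9.09% in all. Among the 43 genes 41 could be tested, 1 was called higher, the L paralog *SdhAL*, and 0 were called lower. With p under 0.05 before adjustment there were 3 higher (14.5% of all genes tested) and 3 lower (6.85%), and DESeq2 called *SdhAL* alone. *COX7AL2* and *ATPsynepsilonL*, paralogs of complexes IV and V, had too few counts.

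All 29 canonical subunits were tested and none was called, by edgeR, by DESeq2 or by limma-voom. Before adjustment, p was under 0.05 in 0 that were higher and in 2 that were lower. Their log2 fold changes ran between −0.31 and 0.16, with a median of −0.02 (all genes tested: −0.0027), 10 positive and 19 negative (49.6% of all genes tested were positive). A test of practical equivalence, which asks whether a fold change lies within 1.5-fold in either direction at q under 0.05, was passed by 27 of the 29, against 47.1% of all genes tested. The genes with high counts pass this test more easily. The edgeR SE of the canonical subunits had a median of 0.11, against 0.18 over all genes tested, whereas the test itself used DESeq2 SEs. The remaining pair was *SdhC* (q = 0.0985) and *UQCR-11* (q = 0.122), for which a change of 1.5-fold was not excluded by the test.

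**Figure D1:**
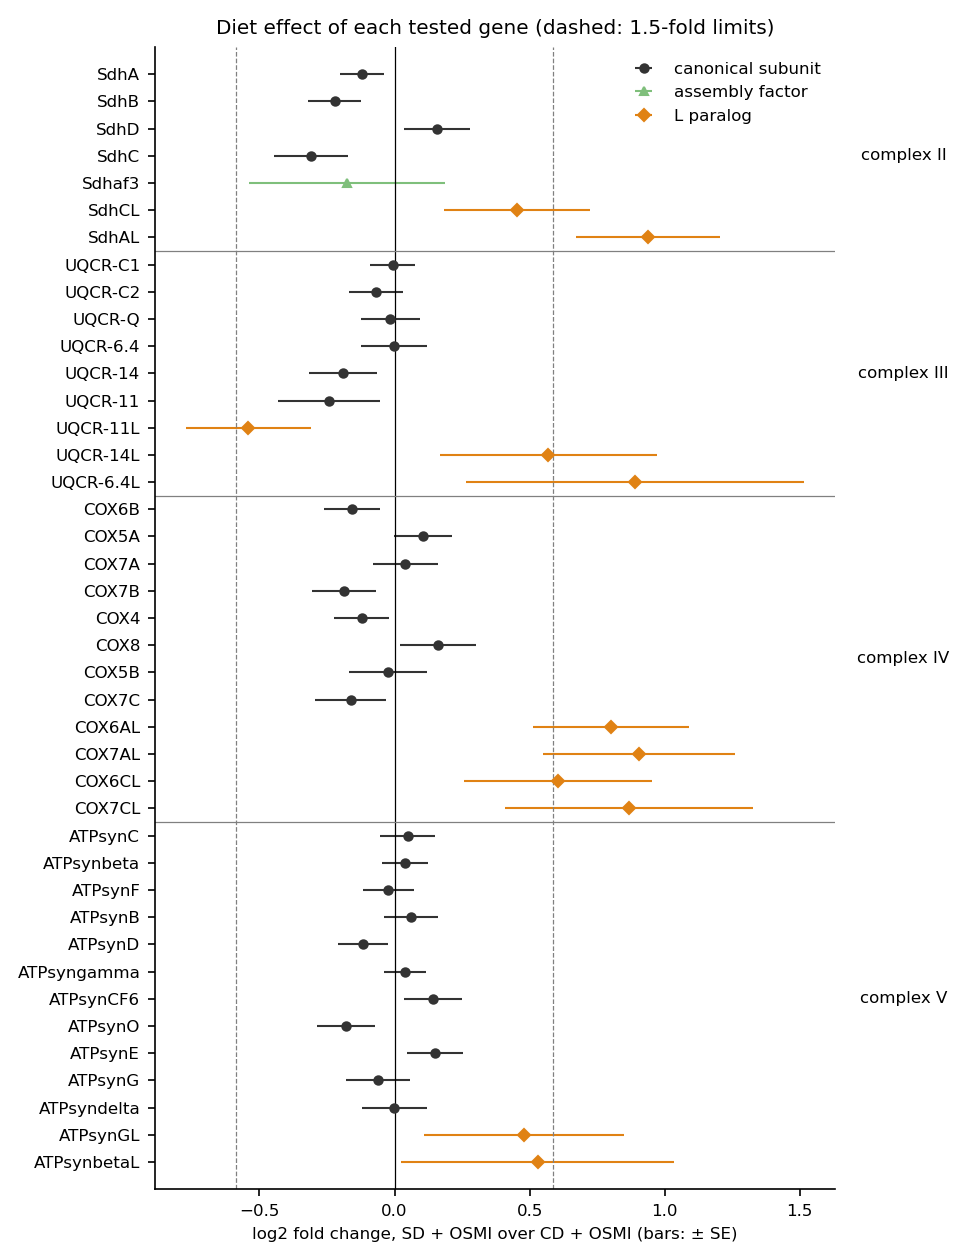
Log2 fold change, SD + OSMI over CD + OSMI, of the 41 tested genes, with bars for ± SE from edgeR and dashed lines at 1.5-fold. Canonical subunits lie between −0.31 and 0.16, and 10 of 11 tested L paralogs lie to the right of 0, with longer bars.

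In complex II, *SdhA* was at 292, 304 and 315 CPM in replicates 4 to 6 on SD + OSMI, against 319, 326 and 344 CPM in replicates 1 to 3 on CD + OSMI. It was the only canonical subunit without overlap between the diets (lower on SD + OSMI without overlap in 10.2% of all genes tested, higher in 14.5%). The gap was small, with a log2 fold change of −0.12 (SE 0.08, edgeR adjusted p = 0.430), and *SdhA* passed the equivalence test (q = 1.51e-06). *SdhC*, which anchors the complex in the inner membrane, had 17.5, 22.0 and 21.6 CPM on SD + OSMI and 27.3, 21.7 and 26.6 CPM on CD + OSMI. Replicate 4 was low and replicate 2 lay within the SD + OSMI range, so the diets overlapped, and its log2 fold change of −0.31 (SE 0.14, edgeR unadjusted p = 0.0406, adjusted p = 0.210) was the largest of the canonical subunits. *SdhB*, the iron-sulfur subunit, averaged 88.7 ± 11.5 CPM on SD + OSMI and 103 ± 6.37 CPM on CD + OSMI (± standard deviation, n = 3 each, here and below), a log2 fold change of −0.22 (SE 0.10, edgeR unadjusted p = 0.0400, adjusted p = 0.208). The other membrane anchor, *SdhD*, had the opposite sign at 0.16 (SE 0.12, edgeR adjusted p = 0.498). Summed over the 4 subunits, complex II stood at 446 ± 26.3 CPM on SD + OSMI and 489 ± 22.8 CPM on CD + OSMI. The assembly factor *Sdhaf3* averaged 2.35 ± 0.986 CPM and 2.63 ± 0.254 CPM, with a log2 fold change of −0.18 (SE 0.36, edgeR adjusted p = 0.829).

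In complex III, all 6 canonical subunits had negative log2 fold changes, from −0.24 to −0.0022, and none reached an unadjusted p under 0.05. *UQCR-C1* was at 327, 322 and 346 CPM on SD + OSMI, against 319, 323 and 357 CPM on CD + OSMI. The libraries of the diets interleaved, and the log2 fold change was −0.0063 (SE 0.08, edgeR adjusted p = 0.977, equivalence q = 2.11e-08). *UQCR-C2* averaged 252 ± 26.8 CPM on SD + OSMI and 264 ± 28.2 CPM on CD + OSMI, also within its replicate spread. Among the small subunits, *UQCR-14* had a log2 fold change of −0.19 (SE 0.12) and *UQCR-11* one of −0.24 (SE 0.19), where the high value of 12.9 CPM in replicate 1 stood against 9.33 and 9.15 CPM in the other CD + OSMI replicates. *UQCR-Q* and *UQCR-6.4* were at −0.02 and −0.0022. The complex III sum was 695 ± 45.5 CPM on SD + OSMI and 714 ± 51.0 CPM on CD + OSMI.

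In complex IV, 3 of the 8 canonical subunits had positive and 5 negative log2 fold changes, and all 8 passed the equivalence test. *COX6B* was at 88.1, 101 and 109 CPM on SD + OSMI and at 121, 95.8 and 115 CPM on CD + OSMI. The diets overlapped, with a log2 fold change of −0.16 (SE 0.10, edgeR adjusted p = 0.425). *COX7B*, another small subunit, had the lowest log2 fold change of the complex. It stood at 28.5, 30.7 and 34.0 CPM on SD + OSMI, against 38.1, 30.1 and 38.0 CPM on CD + OSMI, and replicate 2 was the CD + OSMI library inside the SD + OSMI range (log2 fold change −0.19, SE 0.12, edgeR adjusted p = 0.392). *COX8* was the highest of the canonical subunits of the complex at 0.16 (SE 0.14), followed by *COX5A* at 0.11 (SE 0.11). *COX4* and *COX7C* were at −0.12 (SE 0.10) and −0.16 (SE 0.13), and *COX5B* and *COX7A* were at −0.03 and 0.04. The sum over the complex was 438 ± 42.3 CPM on SD + OSMI and 454 ± 55.4 CPM on CD + OSMI.

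In complex V, 6 of the 11 canonical subunits had positive and 5 negative log2 fold changes, and all 11 passed the equivalence test. *ATPsynC* was at 635, 683 and 820 CPM on SD + OSMI, against 687, 667 and 711 CPM on CD + OSMI. Replicate 6 alone lay above the CD + OSMI range, and the log2 fold change was 0.05 (SE 0.10, edgeR adjusted p = 0.832). Without replicate 6 it was −0.06 (adjusted p = 0.818). *ATPsynO*, which joins the catalytic head to the peripheral stalk, had the lowest log2 fold change of complex V. Its values were 61.1, 58.1 and 65.2 CPM on SD + OSMI and 64.8, 61.7 and 82.4 CPM on CD + OSMI, where replicate 3 was high and the diets overlapped (log2 fold change −0.18, SE 0.11, edgeR adjusted p = 0.363). *ATPsynE*, of the membrane part, and *ATPsynCF6*, of the peripheral stalk, were highest at 0.15 (SE 0.10) and 0.14 (SE 0.11). The catalytic subunit *ATPsynbeta* was at 0.04 (SE 0.08) and the shaft *ATPsyngamma* also at 0.04 (SE 0.08). *ATPsynB*, *ATPsynF*, *ATPsynG*, *ATPsynD* and *ATPsyndelta* lay between −0.12 and 0.06. The summed level of complex V was 1801 ± 157 CPM on SD + OSMI and 1767 ± 100.2 CPM on CD + OSMI.

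Over all 29 canonical subunits the sum was 3166, 3293 and 3682 CPM on SD + OSMI, against 3390, 3251 and 3628 CPM on CD + OSMI, so the diets overlapped and differed by less than the spread within each.

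Subunits of the same complexes whose names do not start with these prefixes were measured for comparison. Of these 8, 0 were called, 8 passed the equivalence test and the median log2 fold change was −0.05. They include *blw*, the alpha subunit of complex V, at 0.04 (SE 0.09), *RFeSP*, the Rieske iron-sulfur protein of complex III, at −0.04 (SE 0.10), and *levy* and *cype*, the canonical partners of *COX6AL* and *COX6CL*, at 0.14 (SE 0.11) and −0.14 (SE 0.12). Of 39 tested complex I genes (symbols that start with ND-, paralogs included), 0 were called, p was under 0.05 before adjustment in 3 higher and 1 lower, and the median was −0.0091. Of the carriers that feed the complexes or export their ATP, *sesB*, the main ATP/ADP carrier, was not called (0.19, SE 0.10, edgeR adjusted p = 0.287), and its paralog *Ant2* was higher on SD + OSMI (0.75, SE 0.20, edgeR adjusted p = 0.0660). Of 11 tested assembly factors and 6 tested regulators of mitochondrial genes, 0 and 0 were called.

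The subunits encoded by the mitochondrial genome had other values. Of its 13 protein genes, 5 were called higher, 12 had an unadjusted p under 0.05 and 11 did not overlap between the diets, with a median log2 fold change of 0.57. Over all genes tested, 6.91% were called higher, 14.5% were higher with such an unadjusted p, and 14.5% were higher without overlap. *mt:Cyt-b*, the cytochrome b of complex III, was at 1209, 1286 and 1924 CPM on SD + OSMI, against 942, 947 and 1081 CPM on CD + OSMI. Every SD + OSMI library lay above every CD + OSMI library (log2 fold change 0.57, SE 0.17, edgeR adjusted p = 0.0865), and replicate 6 was far above the other SD + OSMI libraries. *mt:ATPase6*, of the proton channel of complex V, was higher as well (0.50, SE 0.15, edgeR adjusted p = 0.0994). In complex IV, *mt:CoII* and *mt:CoIII* were at 0.57 (SE 0.18, edgeR adjusted p = 0.117) and 0.37 (SE 0.13, edgeR adjusted p = 0.108), whereas *mt:CoI*, the catalytic subunit, was at 0.14 (SE 0.13) and passed the equivalence test. The number called changed with the libraries used. Without replicate 6, in which mitochondrial ribosomal RNA was also high, 1 of 13 was called and the median log2 fold change was 0.34. Without replicates 1, 2, 3 and 5 in turn, 0, 1, 0 and 1 were called, with medians of 0.44, 0.60, 0.60 and 0.64, and without replicate 4, 11 were called, with a median of 0.71. All 13 log2 fold changes stayed positive in each of these fits. The difference between mitochondrial and nuclear subunit genes was not tested. Whether the mRNAs of the mitochondrial genome were recovered on tagged ribosomes was not tested either. The 13 genes lie on 1 genome and are not independent of each other, so their counts are a description.

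**Figure D2:**
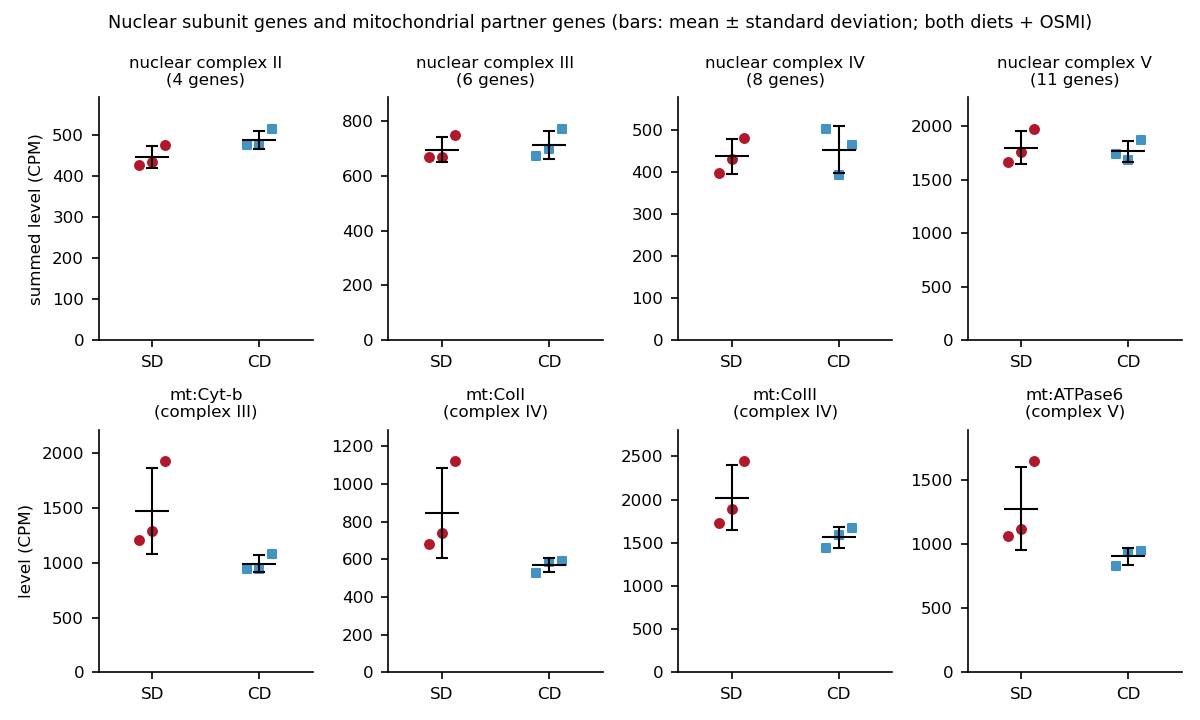
Top, CPM summed over the nuclear canonical subunits of each complex by library, and bottom, CPM of 4 genes of the mitochondrial genome in the same complexes, with the mean ± standard deviation of 3 libraries per diet. The nuclear sums overlap between the diets, whereas each mitochondrial gene shown has all 3 SD + OSMI libraries above the CD + OSMI libraries. *mt:CoI* of complex IV, not shown, overlaps, with 4837 to 6238 CPM on SD + OSMI and 4315 to 5304 CPM on CD + OSMI.

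The L paralogs were rare. Their mean level over the 6 libraries was 0.421 to 6.91 CPM, against 9.66 to 700.4 CPM for the canonical subunits, and their counts over the 6 libraries were 38 to 622 per gene. Of 13, 3 had a single exon (*SdhAL*, *UQCR-14L* and *COX6AL*), as 0 of the 29 canonical genes did. The proteins of 6 of the 13 pairs were within 10% in length. Lengths were 651 amino acids for *SdhAL* and 661 for *SdhA*, 86 for *UQCR-11L* and 85 for *UQCR-11*, 111 for both *UQCR-14L* and *UQCR-14*, but 261 for *SdhCL* and 171 for *SdhC*, 622 for *ATPsynbetaL* and 511 for *ATPsynbeta*, and 62 for *COX7AL2* and 98 for *COX7A*. Of 13 pairs, 6 lay on the same chromosome arm. In BDGP6, *COX7CL* starts 281 bp from *COX7C* and *COX7AL* 2625 bp from *COX7A*. Reads from near-identical stretches of a pair could be lost or counted for the wrong copy, which was not tested.

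As a share of its canonical gene per kb, an L paralog had a median of 12.5% over the 13 pairs on SD + OSMI and 6.15% on CD + OSMI. One pair was far from the rest on this scale. *UQCR-11L* reached 202, 143 and 215% of *UQCR-11* on SD + OSMI and 180, 265 and 258% on CD + OSMI per kb of merged exons, which span 443 bp in *UQCR-11L* and 1613 bp in *UQCR-11*. This order turns with the length used, since *UQCR-11L* was at 39.2 to 72.8% of *UQCR-11* in CPM and at 42.1 to 78.2% per kb of the shortest transcript over the 6 libraries. At the other end, *ATPsynbetaL* was at 0.193, 0.527 and 0.489% of *ATPsynbeta* on SD + OSMI and at 0.268, 0.231 and 0.352% on CD + OSMI, with overlap. In 3 pairs the share was higher on SD + OSMI without overlap (*SdhAL*, *COX6AL* and *COX6CL*), and in 0 it was lower without overlap. *COX6CL* did overlap between the diets in CPM. Ratios of this kind were not formed over all genes, so these counts have no background share and show no direction.

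**Figure D3:**
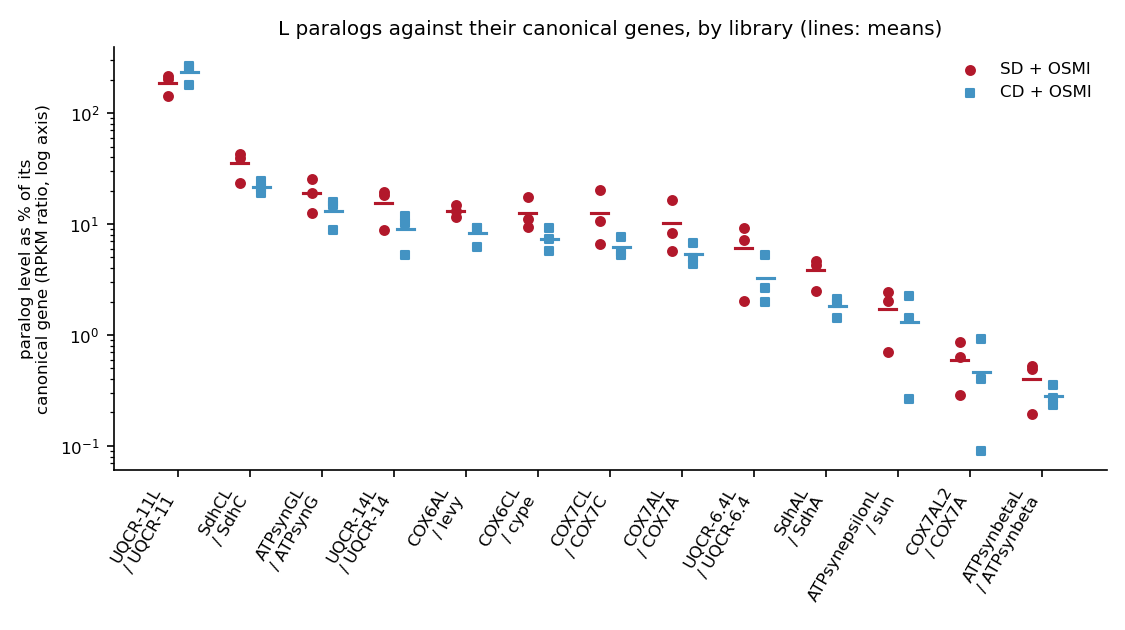
Level of each L paralog as a percentage of its canonical gene (RPKM ratio, log axis) by library, SD + OSMI left of CD + OSMI, with lines at the means. The share runs from below 1% for *ATPsynbetaL* to over 100% for *UQCR-11L*, which is at 39.2 to 72.8% in CPM, without division by length.

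Of the 13 L paralogs 11 were tested, 1 was called (6.91% of all genes tested were called higher) and none passed the equivalence test. Of these 11, 6 had log2 fold changes beyond the 1.5-fold limit itself, and the median SE was 0.35. Their log2 fold changes were positive in 10 and negative in 1, with a median of 0.60, and p before adjustment was under 0.05 in 3 higher ones and in 1 lower one (14.5 and 6.85% of all genes tested). Without overlap between the diets, 3 were higher and 1 lower, and these shares of 11 compare with 14.5 and 10.2% of all genes tested. Whether L paralogs differ from canonical subunits in their response was not tested.

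*SdhAL* (FBgn0036222, chromosome 3L, 11922610 to 11924757, minus strand), the paralog of the complex II flavoprotein, was at 5.70, 10.1 and 11.4 CPM on SD + OSMI, against 5.29, 3.64 and 5.26 CPM on CD + OSMI. Every SD + OSMI library lay above every CD + OSMI library, although replicate 4 lay close to the CD + OSMI values. The log2 fold change was 0.94 (SE 0.27, edgeR adjusted p = 0.0644), and its share of *SdhA* was 2.50, 4.28 and 4.66% on SD + OSMI against 2.13, 1.43 and 1.95% on CD + OSMI. DESeq2 called it (adjusted p = 0.0251) and limma-voom did not (adjusted p = 0.127). The edgeR call was lost without replicate 2 (adjusted p = 0.218), 3 (0.151), 5 (0.242) or 6 (0.302), with log2 fold changes of 0.79, 1.02, 0.85 and 0.75. *SdhCL*, the paralog of a membrane anchor of complex II, averaged 7.99 ± 3.06 CPM on SD + OSMI and 5.82 ± 0.390 CPM on CD + OSMI (log2 fold change 0.45, SE 0.27, edgeR adjusted p = 0.368).

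*UQCR-11L* (FBgn0050354, chromosome 2R, 8677219 to 8677661, plus strand), of complex III, was the one L paralog with a negative log2 fold change. It had 4.50, 3.63 and 5.42 CPM on SD + OSMI, against 6.39, 6.79 and 6.49 CPM on CD + OSMI. All SD + OSMI libraries lay below all CD + OSMI libraries, but the gene was not called (log2 fold change −0.54, SE 0.23, edgeR unadjusted p = 0.0334, adjusted p = 0.191). *UQCR-6.4L*, at the lowest level of the tested genes of complex III, was at 0.380, 1.38 and 1.96 CPM on SD + OSMI and 0.581, 0.343 and 1.04 CPM on CD + OSMI. Its log2 fold change of 0.89 had an SE of 0.63 (adjusted p = 0.451), and the diets overlapped. *UQCR-14L* was at 0.57 (SE 0.40).

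The tested L paralogs of complex IV had log2 fold changes of 0.60 to 0.90, and none was called. *COX6AL*, the paralog of *levy*, was at 4.75, 7.77 and 6.47 CPM on SD + OSMI and 4.33, 2.33 and 4.22 CPM on CD + OSMI. The diets did not overlap (log2 fold change 0.80, SE 0.29, edgeR unadjusted p = 0.0144, adjusted p = 0.126), and it was called without replicate 4 (adjusted p = 0.0417) or with no filter on low counts (adjusted p = 0.0990). *COX7AL* had 3.17, 8.20 and 5.49 CPM on SD + OSMI, against 4.13, 2.33 and 2.53 CPM on CD + OSMI. Replicate 4 lay below replicate 1, so the diets overlapped (log2 fold change 0.90, SE 0.35, edgeR unadjusted p = 0.0237, adjusted p = 0.161), and the gene was called without replicate 4 (adjusted p = 0.0234) or replicate 1 (adjusted p = 0.0909). *COX7CL* had 1.08, 2.88 and 1.58 CPM on SD + OSMI and 1.03, 1.03 and 0.973 CPM on CD + OSMI, no overlap but a gap of less than 1 CPM (log2 fold change 0.87, SE 0.46, edgeR adjusted p = 0.299). *COX6CL*, the paralog of *cype*, averaged 4.15 ± 1.46 CPM and 2.73 ± 1.01 CPM, with overlap. *COX7AL2* averaged 0.540 ± 0.248 CPM and 0.433 ± 0.389 CPM and was not tested.

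Among the complex V paralogs, *ATPsynbetaL* was at 0.633, 1.75 and 1.73 CPM on SD + OSMI and 0.839, 0.755 and 1.23 CPM on CD + OSMI. The diets overlapped at these low counts (log2 fold change 0.53, SE 0.51, edgeR adjusted p = 0.591). *ATPsynGL*, the paralog of a membrane subunit, averaged 3.18 ± 1.24 CPM on SD + OSMI and 2.27 ± 0.612 CPM on CD + OSMI (log2 fold change 0.48, SE 0.37). *ATPsynepsilonL*, the paralog of *sun*, averaged 0.452 ± 0.228 CPM and 0.389 ± 0.321 CPM and was not tested. The SEs of *ATPsynGL* and *ATPsynbetaL* were larger than the size of any canonical log2 fold change, which ran between −0.31 and 0.16.

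The 5 paralogs left out by name had log2 fold changes of 0.74 to 1.11, 4 were called higher and 5 did not overlap between the diets. The number called among the chosen genes therefore depends on leaving these paralogs out. Over all genes tested, 6.91% were called higher and 14.5% were higher without overlap. The 4 complex I paralogs whose symbol ends in L were at 0.50 to 1.22, and 0 were called. *ND-51L1* and *ND-51L2*, whose symbols end in a digit, were at 0.18 (SE 0.35) and 0.71 (SE 0.33) and were not called.

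Markers of some other tissues moved with diet in the same libraries, those of the male reproductive tract up and those of fat body down. The sum over 28 testis and sperm genes, none of them at 0, was 1784, 2963 and 2553 CPM on SD + OSMI, against 1518, 1001 and 1434 CPM on CD + OSMI, and 13 of 27 tested were called higher. Over 16 accessory gland and ejaculatory duct genes it was 251, 425 and 353 CPM on SD + OSMI, against 234, 199.9 and 199 CPM on CD + OSMI, and 11 of 16 were called higher. Over 10 fat body genes the sum was 7605, 6033 and 6327 CPM on SD + OSMI, against 8731, 10354 and 9836 CPM on CD + OSMI, and 6 of 9 tested were called lower. Over all genes tested, 6.91% were called higher and 2.18% lower. The sum of the 13 L paralogs was 32.0, 59.8 and 56.4 CPM on SD + OSMI, against 39.1, 28.3 and 35.3 CPM on CD + OSMI. Within SD + OSMI, replicate 4 was the lowest library for the testis, accessory gland and L paralog sums and for 12 of the 13 L paralogs, and within CD + OSMI replicate 2 was the lowest for 9 of the 13. The lowest library was not counted over all genes tested, and the part of these markers in the L paralog values was not tested. The sum over 14 genes of muscle, a tissue rich in mitochondria, was 9737, 9957 and 8683 CPM on SD + OSMI and 8293, 7885 and 10248 CPM on CD + OSMI, with overlap. Over 6 glia genes it was 1197 to 1280 CPM on SD + OSMI and 1359 to 1409 CPM on CD + OSMI, without overlap. Over 7 neuron genes the diets overlapped (8126 to 9988 CPM and 9208 to 10540 CPM), and 7 log2 fold changes were negative. In both of these lists 0 genes were called. Of the 14 muscle genes 1 was called higher and 0 lower, with 10 log2 fold changes positive and 4 negative. The gut and hemocyte sums also overlapped. Of 10 tested gut genes 1 was called lower and 0 higher, and of 5 hemocyte genes 0 were called.

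The canonical subunits often shared their highest and lowest library within a diet. How often all genes tested did so was not counted, so this is not shown to be particular to them. Replicate 6 was the highest SD + OSMI library for 24 of 29 and replicate 4 the lowest for 21. Within CD + OSMI, replicate 2 was the lowest for 20 of 29, among them 8 of 8 in complex IV and 9 of 11 in complex V, but 1 of 6 in complex III. Its level relative to the mean of replicates 1 and 3 followed exon length across genes (Spearman rho 0.61 over 29 genes of the same libraries, a description across genes, which are not independent replicates). All 19 canonical genes with exons under 1000 bp were lower in replicate 2, with a median log2 ratio of −0.27, whereas the 10 longer ones had a median of −0.07. Over all genes tested with counts in these libraries, the medians were −0.22 for genes under 1000 bp and 0.01 for longer ones, with a rho of 0.29. Without replicate 2, the median log2 fold change over diet was −0.12 for the 19 short canonical genes and −0.07 for the 10 longer ones, and with it −0.02 and −0.04, and 0 canonical subunits were called in either case. The part of length in the diet values was not tested further.

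**Figure D4:**
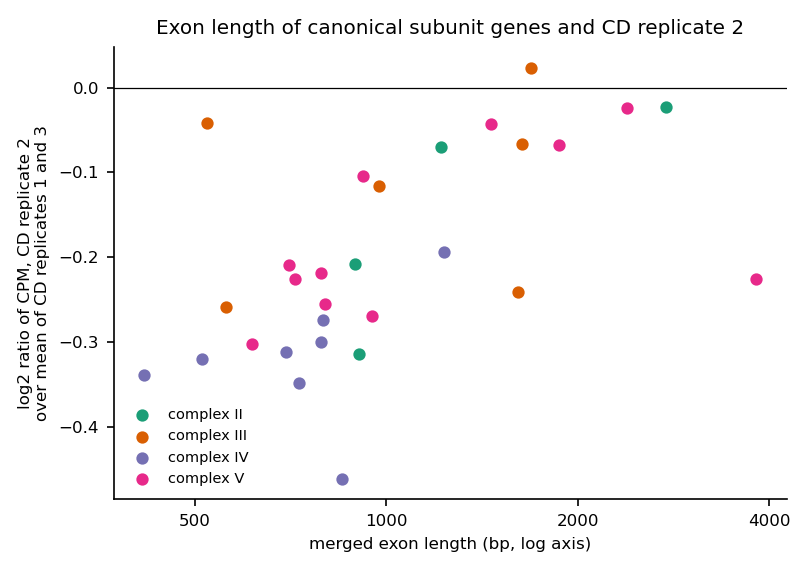
Log2 ratio of the CPM in CD + OSMI replicate 2 over the mean of replicates 1 and 3, against merged exon length on a log axis, for the 29 canonical subunits coloured by complex. The 19 genes under 1000 bp all lie below 0, and 9 of the 10 longer genes do.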

How the data were processed

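Per the labels and the study's methods, the authors depleted ribosomal RNA, made libraries with the Ovation SoLo system, discarded reads with a quality below 30, aligned the rest with STAR to BDGP6 (dm6), used SAMtools 1.4, counted per gene with HTSeq and tested with DESeq2 1.18.0. The deposited values are raw counts of 17489 genes in 6 libraries. Strand setting and annotation release of the count are not given in the sources used here.

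Symbols, positions and lengths came from the Ensembl annotation of BDGP6, in which 17215 genes matched. Genes that reached 10 counts in 3 or more libraries were tested in R 4.3.3 with edgeR 4.0.16 (TMM, robust quasi-likelihood fit, diet as the only term, adjusted p under 0.1). Standard errors were obtained from the fold change and F. RPKM is TMM-normalized CPM per 1000 bp of merged exon. Equivalence used DESeq2 1.42.0 estimates, a limit of 1.5-fold and q under 0.05, and limma 3.58.1 gave the voom fit. Tests were checked on simulated counts. Tables and plots used Python 3.11.15, pandas 2.3.3, numpy 2.4.6 and matplotlib 3.10.9.

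The genes, lists and tests were chosen with earlier results of these data known. Values per library are given for the called genes, for the highest and lowest level and the largest and smallest fold change among the tested genes of each complex, and for the 3 smallest p-values. Of the list entries, 13 matched no gene. Nothing states that replicates came from separate cohorts beyond the word biological, and p-values measure the spread between these libraries. Alternatives were RLE and upper-quartile factors, DESeq2, limma-voom, no filter, at least 50 counts, an adjusted p under 0.05, a 2-fold limit of equivalence, leaving out each library in turn or the 20 genes with the most counts, and, chosen after seeing the data, leaving out the mitochondrial genome and using the shortest transcript. Promoter and protein sequences were not used here.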

Additional observations from a re-analysis of the deposited data

How the results depend on the processing

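No paired analysis was possible because the diets share no replicate number. No canonical subunit was called under any of the 15 alternatives. The count of genes called higher, 1 in the report, was 0 with limma-voom and 0 at an adjusted p under 0.05, 2 with no filter (*COX6AL* and *SdhAL*), and between 0 and 4 when each library was left out in turn, both among all 43 genes and among the L paralogs. Without replicate 1 it was 2 (*COX7AL* and *SdhAL*), without replicate 4 it was 4 (*COX6AL*, *COX7AL*, *SdhAL* and *SdhCL*), and without replicate 2, 3, 5 or 6 it was 0. Over all genes tested, 823 were higher and 260 lower, against 1092 and 342 with DESeq2, 123 and 76 without replicate 2, 159 and 55 without replicate 3, 1634 and 800 without replicate 4, 103 and 65 without replicate 5, and 42 and 34 without replicate 6, and the cause was not tested. The median log2 fold change lay between −0.09 and 0.03 for canonical subunits and between 0.41 and 0.89 for L paralogs with a library left out. *UQCR-C1* ranged from −0.036 to 0.047, with 0.047, 0.019 and 0.017 without replicates 3, 4 and 5, and *ATPsynC* from −0.060 to 0.14, with −0.060 without replicate 6. The number of equivalent canonical subunits was 25 to 27 with a library left out, and of L paralogs 1 with a 2-fold limit. Per kb of the shortest transcript, which is shorter by construction, the summed level over all genes of a complex was 680 RPKM for complex III, 832 for IV and 2180 for V, against 528, 620 and 1306 RPKM per kb of merged exons. Depth limits the L paralogs, whose counts per library were 1 to 163.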
